A study of Homo sapiens with 8 samples.

Results

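The 10 genes described here are integrated stress response (ISR) genes: ATF4, ATF5, DDIT3 (encoding CHOP), CEBPB, PPP1R15A (encoding GADD34), TRIB3, ASNS, PSAT1, CHAC1 and VLDLR. They were chosen by name as members of this pathway, and they are 10 of the 20296 genes that could be named on the arrays. All 10 were represented, and each gene was read from its brightest probe on average. RNA came from MCF10A, an immortalised, non-tumorigenic line of human mammary epithelium, with either intact p53 (p53+/+) or no p53 (p53-/-). Untreated cells of each genotype were collected at 0 h, and cells that had received adriamycin (ADR, also called doxorubicin), a topoisomerase poison that damages DNA, were collected at 12, 24 and 48 h. The sample labels give the exposure as 0.5 µg/ml for 2 h, and the study's methods name another dose, so the dose is not settled. Each of the 8 conditions was measured on 1 single-colour Agilent array, the labels do not say how the p53-/- line was made or whether it is 1 clone, and no condition has a replicate. The purpose of the comparison, per the series title, was to find genes regulated by p53 in breast epithelial cells.

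In the ISR, the kinases PERK, GCN2, PKR and HRI respond to unfolded protein, amino acid shortage, double-stranded RNA and haem or mitochondrial stress, and each phosphorylates the translation factor eIF2alpha. General translation then falls while a few mRNAs with upstream reading frames, among them ATF4, are translated more, and the ATF4 protein switches on genes for amino acid supply, glutathione turnover and, under lasting stress, cell death. Because much of this control is exerted on translation and on phosphorylation, an array reads the mRNA of these genes and not the activity of the pathway.

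ATF4 binds its targets with a CEBP partner at a composite element (CARE), and the promoter of ASNS holds the best studied one. The sequences before the start sites of ASNS, CHAC1, PPP1R15A and PSAT1 are shown because the first 3 hold a searched motif and PSAT1 was at least 2-fold higher in treated p53+/+ cells at all 3 times. The motifs searched were the CARE letters TGATGNAA (TTNCATCA on the other strand) and the cyclic AMP response element TGACGTCA, which reads the same on both strands, in the window from 250 bases before to 50 bases after each start site. Sequences are from RefSeq, assembly GRCh38.p14, written 5′ to 3′ on the strand of the gene, and show the 250 bases before the start site with the match in capitals. ASNS lies on the minus strand at chr7:97872409-97872658, and CHAC1 at chr15:40953221-40953470, PPP1R15A at chr19:48872171-48872420 and PSAT1 at chr9:78296875-78297124 lie on the plus strand.
ASNS: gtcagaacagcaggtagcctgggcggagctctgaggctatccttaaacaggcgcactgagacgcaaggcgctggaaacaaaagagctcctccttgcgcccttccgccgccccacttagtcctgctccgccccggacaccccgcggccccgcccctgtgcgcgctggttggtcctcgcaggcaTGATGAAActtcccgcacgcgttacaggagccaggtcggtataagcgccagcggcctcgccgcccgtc
CHAC1: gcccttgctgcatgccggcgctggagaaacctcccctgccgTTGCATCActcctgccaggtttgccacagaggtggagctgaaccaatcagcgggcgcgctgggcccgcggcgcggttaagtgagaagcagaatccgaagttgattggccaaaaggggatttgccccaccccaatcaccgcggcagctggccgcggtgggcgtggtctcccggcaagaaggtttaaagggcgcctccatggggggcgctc
PPP1R15A: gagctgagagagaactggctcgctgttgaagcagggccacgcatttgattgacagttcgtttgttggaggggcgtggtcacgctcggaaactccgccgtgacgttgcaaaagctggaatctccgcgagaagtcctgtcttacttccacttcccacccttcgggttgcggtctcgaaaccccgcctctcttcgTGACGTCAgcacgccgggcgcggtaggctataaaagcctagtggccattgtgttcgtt
PSAT1: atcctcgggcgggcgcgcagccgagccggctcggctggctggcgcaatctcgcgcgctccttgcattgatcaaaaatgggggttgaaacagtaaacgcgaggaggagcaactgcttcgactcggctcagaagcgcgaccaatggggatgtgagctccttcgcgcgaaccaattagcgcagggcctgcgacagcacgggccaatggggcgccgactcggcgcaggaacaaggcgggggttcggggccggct
The CARE letters were found at -68 from the start site in ASNS, as TGATGAAA, and at -209 in CHAC1, as TTGCATCA on the other strand. They were present in 2 of the 10 genes, against 3.62% of the 35116 promoters of this table and 4.46% of its 27305 genes. The TGACGTCA letters were found at -58 in PPP1R15A, 1 of the 10 genes, against 1.85% of promoters and 2.25% of genes. The other 7 genes held neither set of letters in this window, which says only that these letters are not there.

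Values are log2 signals on a scale where 0 is an array's 75th percentile, so a difference of 1 is 2-fold and a level can be set against the same gene on another array but not against another gene. The labels were checked with the p53 targets CDKN1A (p21) and MDM2. CDKN1A read 2.54 to 2.70 on the treated p53+/+ arrays and -0.96 to -0.48 on the treated p53-/- arrays, and MDM2 read 1.29 to 1.76 against -2.04 to -1.33. On the array labelled p53+/+ 0 h they read -1.14 and -1.66, each within the range of the 4 p53-/- arrays. The p53-/- 0 h array read -2.97 and -1.33. Against that untreated array, the array labelled p53+/+ 0 h was higher for CDKN1A, the direction of its label, and lower for MDM2. These untreated levels do not settle the genotype of that array, so each change in p53+/+ cells below is given from it and also from the p53-/- 0 h array. The 6 treated arrays carried signals in the direction of their labels and are compared directly. The 75th percentile of the signal was 661 to 1199 and 49.8 to 62.9% of probes were well above background. Both split by genotype after treatment. Treated p53+/+ arrays had a percentile of 661 to 818 and 49.8 to 53.1% of such probes. Treated p53-/- arrays had 1118.5 to 1199 and 57.4 to 62.9%. Brightness therefore went with genotype in the treated comparisons, and this percentile is also the value used for scaling. Results with other scalings are given below. Of 10 spike-in probes, 0 were well above background on the p53+/+ 48 h array and 6 on each other array. Basal mammary epithelial markers were well above background on all 8 arrays for 6 of 7 genes, with a summed log2 level of 6.11 to 7.69 on p53+/+ and 5.35 to 5.90 on p53-/- arrays, and TP63 was so on 3 arrays. Of fibroblast markers 0 of 4 were above background on all arrays (COL1A2 and COL3A1 on none; summed -4.51 to -2.80 and -2.91 to -1.84). The leukocyte markers PTPRC and CD14 were above background on all 8 arrays, and CD14 read 0.78 to 1.67 on p53+/+ and 1.37 to 2.59 on p53-/- arrays. Of endothelial markers 1 of 3 were (summed -2.65 to -1.47 and -1.60 to -1.08), and of luminal markers 2 of 4 (PGR on none; summed -1.36 to 0.205 and -1.52 to -0.684). The part of cell makeup in the results below was not tested, and fewer cells of a type and less RNA per cell cannot be told apart in such bulk RNA.

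The 10 genes did not move as a block after ADR. Well above background on all 8 arrays were 9 of the 10, and VLDLR was so on 7. PSAT1, a serine synthesis enzyme, was at least 2-fold higher in treated p53+/+ than in treated p53-/- cells at all 3 times, ATF5 was lower in p53+/+ cells in a fit over the treated arrays, CHAC1 was higher in p53+/+ cells at 12 and 24 h, and DDIT3 and PPP1R15A were lower in p53+/+ cells at 48 h. ATF4 itself, CEBPB, TRIB3, ASNS and VLDLR differed by less than 2-fold between treated genotypes at every time.

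**Figure D1:**
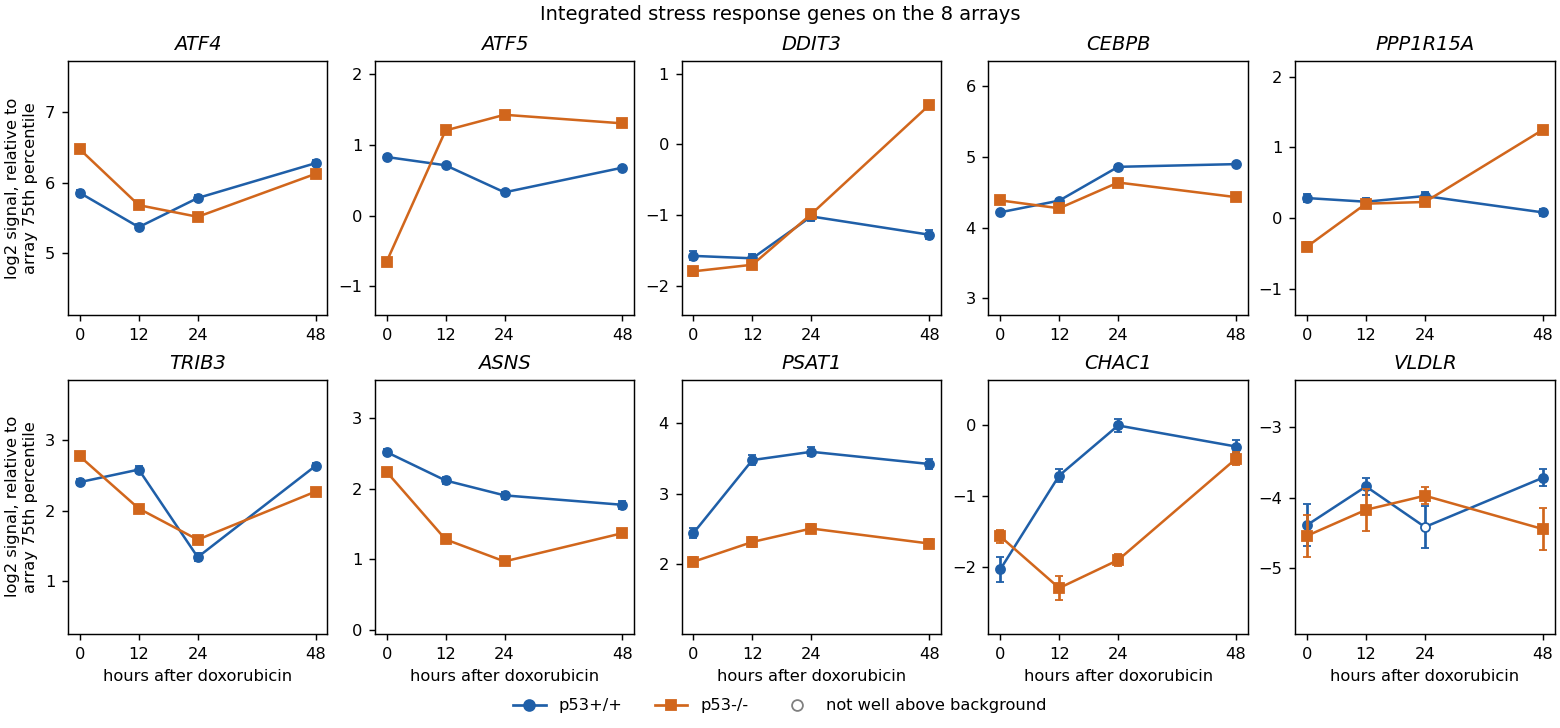
Log2 signal of each of the 10 genes relative to its array's 75th percentile (vertical axis, each panel spanning the same log2 range) against hours after ADR, for p53+/+ (circles) and p53-/- arrays (squares), 1 array a point. Bars are a technical SD, not a replicate error. It is the spot SD of probes in 10 spots at like signal, divided by the square root of the gene's number of spots. The open circle (VLDLR, p53+/+ 24 h) was not well above background. The treated arrays of the genotypes do not overlap for PSAT1, ATF5 and ASNS. The genotypes differ at least 2-fold for PSAT1 at all 3 treated times, CHAC1 at 12 and 24 h, ATF5 at 24 h, and DDIT3 and PPP1R15A at 48 h.

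By the size rule of at least 2-fold at all 3 treated times, 1 of the 10 genes (PSAT1) was higher in treated p53+/+ cells, where 6.75% of all 15811 genes tested were, and 0 of 10 were lower, against 5.92%. The same 6 arrays were fitted with limma, the 3 times of a genotype standing in for replicates, so that the p-value sets the genotype difference against movement over time. Of the 28947 probes tested, 10.6% were higher and 7.4% lower in treated p53+/+ arrays at a Benjamini-Hochberg adjusted p of 0.05, and by gene 11.6% of the 15811 genes were higher and 9.34% lower. Among the 10 genes 1 was higher (PSAT1) and 1 lower (ATF5). Of all probes called, 58.8% were higher in p53+/+ with the scaling used, 48.3% with quantile normalization, 45.7% with scaling on the median, 14.5% with no scaling and 73.3% after normexp background correction. Treated arrays of the genotypes did not overlap for 3 of the 10 genes (ATF5, ASNS and PSAT1), against 44.5% of all genes, a share near the background. With 1 array per condition, the only error of a single difference is a technical one, whose SD on the log2 scale was 0.03 to 0.43 for these genes. It was taken from probes printed in 10 spots at like signal, divided by the square root of the gene's number of spots, and combined over both arrays.

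**Figure D2:**
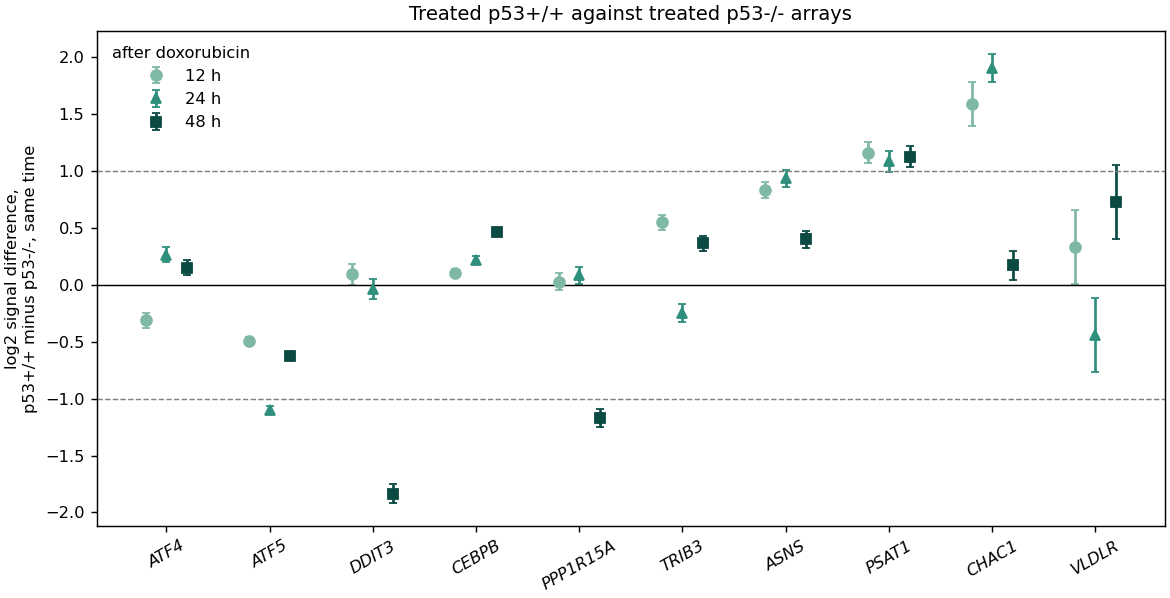
Log2 signal difference between treated p53+/+ and treated p53-/- arrays at the same time (vertical axis) for the 10 genes at 12 h (circles), 24 h (triangles) and 48 h (squares), 1 pair of arrays a point. Bars are the technical SD of the difference, taken from probes in 10 spots at like signal, and dashed lines mark 2-fold. PSAT1 lies above the upper line at all 3 times (1.16, 1.09 and 1.13), and DDIT3 lies at -1.83 at 48 h only.

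Of the transcription factors, ATF4, the translationally controlled activator of the pathway, had an mRNA level of 5.86, 5.37, 5.78 and 6.28 at 0, 12, 24 and 48 h on arrays labelled p53+/+ and of 6.47, 5.68, 5.52 and 6.12 on p53-/- arrays. Its level was lowest at 12 or 24 h in both series, it was highest on the p53-/- 0 h array, and the treated arrays of the genotypes overlapped. The mean difference over treated arrays was 0.04 (SE 0.29, limma adjusted p = 0.950), with a sign that turned with quantile normalization, with scaling on the median and with no scaling.

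ATF5, a relative of ATF4 that is also controlled by upstream reading frames, read 0.83, 0.71, 0.33 and 0.68 on arrays labelled p53+/+ and -0.65, 1.21, 1.43 and 1.31 on p53-/- arrays. The 3 treated p53-/- arrays were all above the 3 treated p53+/+ arrays, and the p53-/- 0 h array was the lowest of the 8. ATF5 rose 3.62-, 4.23- and 3.89-fold from 0 h at 12, 24 and 48 h in p53-/- cells. Treated p53+/+ cells differed from treated p53-/- cells by -0.49, -1.10 and -0.63, a mean of -0.74 (SE 0.19, 1.67-fold lower, limma adjusted p = 0.0428). The adjusted p ran from 0.00598 to 0.324 over 11 alternative fits and was under the threshold in 7 of them. Without the 12, 24 or 48 h pair it was 0.112, 0.324 and 0.121, and with time as a block 0.0815. In p53+/+ cells the change was -0.12, -0.50 and -0.15 from the array labelled p53+/+ 0 h but 1.36, 0.98 and 1.33 from the p53-/- 0 h array, so its direction rests on which untreated array is used. The interaction of genotype and treatment was -2.22 (SE 0.38, limma adjusted p = 0.0490), where 1.69% of all probes had one, and 1 of the 10 genes did. That fit measures p53+/+ changes from the array labelled p53+/+ 0 h, has 1 untreated array per genotype, which is assumed to vary like the treated ones, and passed the threshold in 5 of 9 alternatives (adjusted p 0.0149 to 0.312).

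DDIT3 encodes CHOP, the factor that turns a lasting stress response towards cell death. It read -1.58, -1.61, -1.02 and -1.28 on arrays labelled p53+/+ and -1.80, -1.70, -0.99 and 0.56 on p53-/- arrays. The p53-/- 48 h array stood above the other 7, which lay between -1.80 and -0.99. DDIT3 in p53-/- cells was 1.07-, 1.75- and 5.11-fold above 0 h at 12, 24 and 48 h, and treated p53+/+ cells differed from treated p53-/- cells by 0.09, -0.03 and -1.83. The mean difference of -0.59 (SE 0.56, limma adjusted p = 0.505) was 0.0288 without the 48 h arrays, so it rests on that pair.

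CEBPB, a CEBP factor that pairs with ATF4 and also acts in inflammation and differentiation, read 4.22, 4.38, 4.86 and 4.90 on arrays labelled p53+/+ and 4.39, 4.27, 4.64 and 4.43 on p53-/- arrays. All 8 values lay between 4.22 and 4.90, and the genotypes overlapped. In p53+/+ cells the change was 0.17, 0.64 and 0.68 from the array labelled p53+/+ 0 h. From the p53-/- 0 h array it was -0.003, 0.47 and 0.51. In p53-/- cells CEBPB stood at -0.11, 0.25 and 0.05 from 0 h. The difference between treated genotypes was 0.11, 0.22 and 0.47, a mean of 0.27 (SE 0.22, limma adjusted p = 0.446).

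Of the feedback genes, PPP1R15A encodes GADD34, the phosphatase subunit that removes phosphate from eIF2alpha and restores translation. It read 0.28, 0.23, 0.31 and 0.08 on arrays labelled p53+/+ and -0.40, 0.20, 0.23 and 1.25 on p53-/- arrays. As with DDIT3, the p53-/- 48 h array was the highest, while the 4 arrays labelled p53+/+ lay between 0.08 and 0.31. From the p53-/- 0 h array the treated p53+/+ arrays stood at 0.64, 0.72 and 0.48, and from the array labelled p53+/+ 0 h at -0.05, 0.03 and -0.20. PPP1R15A in p53-/- cells was 1.52-, 1.55- and 3.15-fold above 0 h, and the difference between treated genotypes was 0.03, 0.08 and -1.17, a mean of -0.35 (SE 0.32, limma adjusted p = 0.482) that was 0.0558 without the 48 h arrays. Over the 8 arrays, Pearson's r of DDIT3 with PPP1R15A was 0.89, the highest of the 45 pairs of these genes, as a description over arrays that include the high p53-/- 48 h values of both.

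TRIB3, a pseudokinase induced by ATF4 and CHOP that dampens both ATF4 activity and AKT signalling, read 2.41, 2.58, 1.34 and 2.64 on arrays labelled p53+/+ and 2.77, 2.03, 1.59 and 2.27 on p53-/- arrays. The 24 h array was the lowest of each series and the genotypes overlapped. At 24 h TRIB3 was 2.27-fold below 0 h in p53-/- cells, and in p53+/+ cells it stood at -1.06 from the array labelled p53+/+ 0 h and at -1.43 from the p53-/- 0 h array. The difference between treated genotypes was 0.55, -0.25 and 0.36, a mean of 0.22 (SE 0.40, limma adjusted p = 0.740).

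Of the metabolic genes, PSAT1 encodes phosphoserine aminotransferase, the middle step of serine synthesis. It read 2.44, 3.47, 3.59 and 3.42 on arrays labelled p53+/+ and 2.03, 2.31, 2.51 and 2.29 on p53-/- arrays. The 3 treated p53+/+ arrays were above the other 5, and within each genotype the treated arrays lay close to each other. Treated p53+/+ cells were 2.23-, 2.12- and 2.18-fold above treated p53-/- cells at 12, 24 and 48 h, a mean log2 difference of 1.12 (SE 0.17, limma adjusted p = 0.00828). The adjusted p ran from 0.00107 to 0.141 over 11 alternative fits and was under the threshold in 8. It was 0.0629 without the 12 h and 0.141 without the 24 h arrays, and with no scaling, where the median of all genes itself lies at -0.37 to -0.76, the difference was 0.53 (adjusted p = 0.0833). The 2-fold size rule at all 3 times was also missed with no scaling, and with quantile normalization and scaling on the median, where the mean difference was 1.05 and 0.99. In p53+/+ cells PSAT1 was 2.05-, 2.22- and 1.97-fold above the array labelled p53+/+ 0 h and 2.71-, 2.94- and 2.61-fold above the p53-/- 0 h array, and in p53-/- cells 1.21-, 1.39- and 1.20-fold above 0 h. The interaction of genotype and treatment was 0.72 (SE 0.34, limma adjusted p = 0.350).

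Of the other enzymes of serine synthesis, neither passed the limma test, and PHGDH met the 2-fold size rule in the opposite direction to PSAT1. PHGDH, which catalyses the first step, differed between treated genotypes by -2.91 (SE 0.88, limma adjusted p = 0.0667), was lower by the size rule at all 3 times (-1.19, -2.36 and -5.19), and read 1.09, 0.46 and -2.50 on treated p53+/+ arrays against 2.29, 2.82 and 2.68 on treated p53-/- arrays. Treated p53+/+ arrays were all lower, and the 48 h array was the lowest by far. PSPH, which catalyses the last step and is named here after its values were seen, differed by 0.48 (SE 0.21, limma adjusted p = 0.162).

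ASNS, asparagine synthetase, is the classical ATF4 target with the CARE shown above. It read 2.52, 2.12, 1.90 and 1.77 on arrays labelled p53+/+ and 2.24, 1.28, 0.97 and 1.37 on p53-/- arrays. Both 0 h arrays were above the treated arrays of their series, and the treated p53+/+ arrays were all above the treated p53-/- arrays. From 0 h the p53-/- arrays differed by -0.96, -1.27 and -0.87, and the p53+/+ arrays by -0.40, -0.61 and -0.75 from the array labelled p53+/+ 0 h. From the p53-/- 0 h array the p53+/+ values were -0.12, -0.33 and -0.47. The difference between treated genotypes was 0.83, 0.94 and 0.40, a mean of 0.72 (SE 0.20, 1.65-fold, limma adjusted p = 0.0517). It thus missed the threshold narrowly, and passed it in 4 of 11 alternative fits (adjusted p 0.0251 to 0.699).

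CHAC1, which breaks down glutathione, is a target of ATF4 and CHOP and holds CARE letters in the sequence shown above. It read -2.04, -0.71, -0.00 and -0.30 on arrays labelled p53+/+ and -1.57, -2.30, -1.91 and -0.47 on p53-/- arrays. The treated p53+/+ arrays were high at all 3 times, the p53-/- arrays were low until 48 h, and at 48 h the genotypes met, so the treated arrays overlapped. CHAC1 rose 2.51-, 4.11- and 3.34-fold from the array labelled p53+/+ 0 h in p53+/+ cells, and stood 1.82-, 2.97- and 2.42-fold above the p53-/- 0 h array. In p53-/- cells it was at -0.73, -0.33 and 1.10 from 0 h. Treated p53+/+ cells were 3.02- and 3.75-fold above treated p53-/- cells at 12 and 24 h, and 1.13-fold at 48 h. The mean difference of 1.22 (SE 0.49) had a limma adjusted p of 0.131, and without the 48 h arrays it was 1.75 with a limma adjusted p of 0.0490. A dimmer CHAC1 probe, well above background on 5 of 8 arrays, gave a mean difference of 0.61. CHAC1 is read from 1 spot an array, as is PSAT1, and for these, as for every gene here, the technical SD is taken from probes in 10 spots at like signal.

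VLDLR, a lipoprotein receptor that the ISR induces in several cell types, gave a dim signal, well above background on 7 of 8 arrays. It read -4.39, -3.84, -4.42 and -3.72 on arrays labelled p53+/+, the value at 24 h not being well above background, and -4.54, -4.17, -3.97 and -4.45 on p53-/- arrays. The genotypes overlapped, and the mean difference was 0.20 (SE 0.25, limma adjusted p = 0.622). A further VLDLR probe was well above background on 0 of 8 arrays.

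Counting the changes from 0 h by the size rule, 1 of the 10 genes rose at all 3 times in p53-/- cells (ATF5) against 3.21% of all genes, and 0 of 10 fell, against 2.04%. In p53+/+ cells, from the array labelled p53+/+ 0 h, 1 rose (CHAC1) against 9.53%, and 0 fell, against 6.39%. From the p53-/- 0 h array, 1 rose (PSAT1) against 9.55%, and 0 fell, against 6.79%. The gene counted in p53+/+ cells is therefore a different one for each untreated array.

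**Figure D3:**
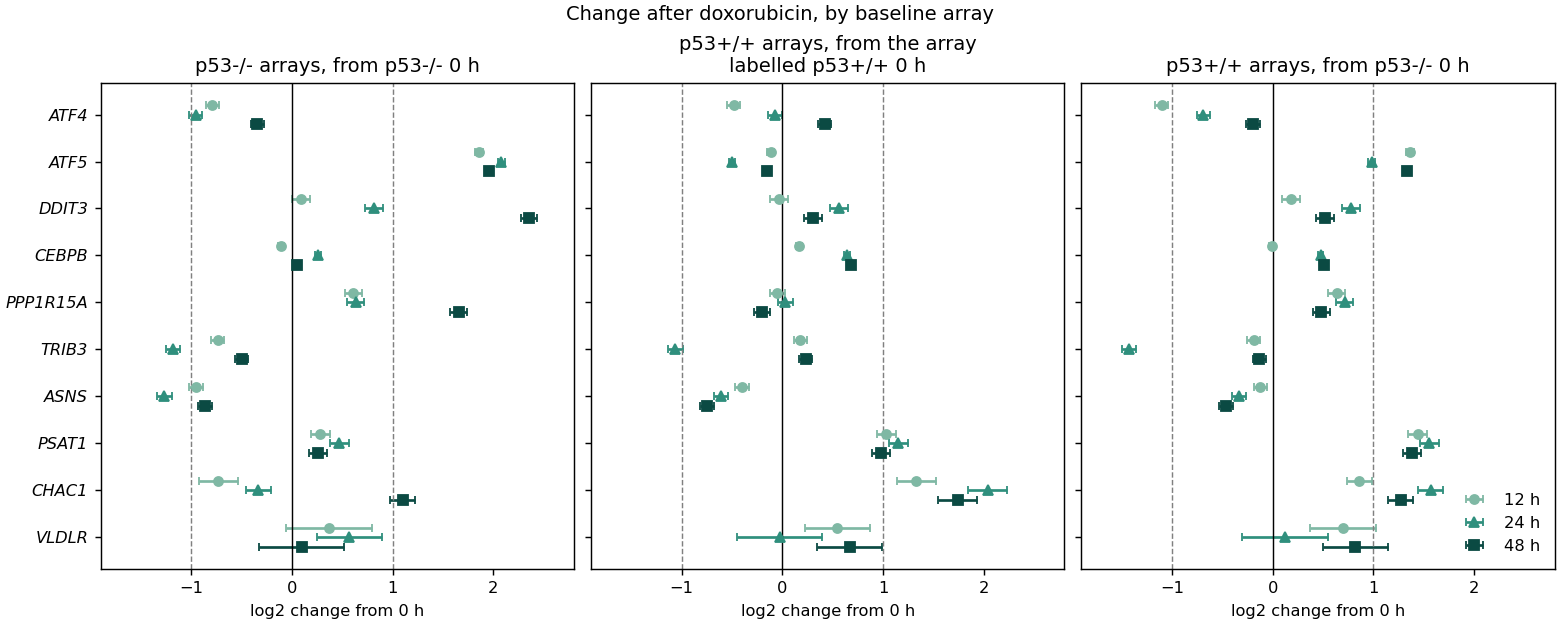
Log2 change from 0 h (horizontal axis) of the 10 genes at 12 h (circles), 24 h (triangles) and 48 h (squares) in p53-/- cells from p53-/- 0 h, in p53+/+ cells from the array labelled p53+/+ 0 h, and in p53+/+ cells from p53-/- 0 h. Bars are the technical SD of the change, taken from probes in 10 spots at like signal, and dashed lines mark 2-fold. ATF5 lies near 2 in p53-/- cells, and in p53+/+ cells below 0 from the first baseline and near 1 from the second.

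Across the 8 arrays the 10 genes gave no common profile. Of the 45 pairs, 22 had a Pearson's r above 0, the median r was -0.02, CHAC1 and PSAT1 had 0.72, and the lowest pair was ATF5 with ASNS at -0.67. These arrays share genotypes and a treatment course, so r describes these 8 arrays only. The genes most like the mean profile of ASNS, CHAC1, PSAT1 and TRIB3, among 11824 genes above background on all arrays, were CMTM6 (r = 0.988), FEM1B (0.973), LAMA1 (0.959), TBATA (0.957) and PLEKHM1 (0.956). ASNS, CHAC1, PSAT1 and TRIB3 themselves had pairwise r from -0.19 (TRIB3 with PSAT1) to 0.72, so their mean is not a profile that they share. The genes named had the highest r of all 11824 over 8 arrays, and TBATA was dim (-4.68 to -3.48).

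The wider pathway was described with 6 further lists, by the same fit over treated arrays. Over all genes tested the median difference, p53+/+ minus p53-/-, was 0.05, and over the 10 genes it was 0.21. Among the eIF2alpha kinases, phosphatase subunits and relay genes the median was 0.14, and 2 of 17 were higher and 1 lower, against 11.6% and 9.34% of all genes, so these counts are near the background. EIF2AK4, which encodes the amino acid sensor GCN2, was 2.48-fold higher in p53+/+ cells (difference 1.31, SE 0.18, limma adjusted p = 0.00563), and OMA1, the mitochondrial protease that signals through DELE1, was higher by 0.86 (SE 0.23, limma adjusted p = 0.0469). IMPACT, an inhibitor of GCN2 activation, differed by 1.07 (SE 0.39, limma adjusted p = 0.104).

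Among other stress-induced ATF4 or CHOP targets and partners, the median was 0.94, and 7 of 16 were higher and 3 lower, against 11.6% and 9.34% of all genes. GDF15, a secreted stress cytokine, read 8.83, 9.02 and 8.97 on treated p53+/+ arrays and 0.23, 2.15 and 2.51 on treated p53-/- arrays, a difference of 7.31 (SE 0.57, limma adjusted p = 0.000913). BBC3, the pro-apoptotic PUMA, differed by 4.36 (SE 0.35, limma adjusted p = 0.00101), and NUPR1, a stress-induced chromatin protein, by 4.22 (SE 0.34, limma adjusted p = 0.000950). GDF15 and BBC3 are also direct p53 targets by textbook knowledge. Of the other genes called higher, the study lists mouse Sesn2 in the p53 signalling pathway and describes Tnfrsf10b as a reported p53 target. SESN2 differed by 3.21 (limma adjusted p = 0.000705) and TNFRSF10B by 1.99 (limma adjusted p = 0.00143). The count of this list therefore includes p53 targets, and the part of the ISR in it was not tested. The 3 genes of the list called lower were STC2 (-2.15, limma adjusted p = 0.00314), JDP2 (-2.07, limma adjusted p = 0.00480) and EIF4EBP1 (-1.59, limma adjusted p = 0.0146).

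Of the amino acid transporters, 0 of 11 were higher and 4 lower in treated p53+/+ cells, against 11.6% and 9.34% of all genes, with a median of -0.38. The glycine transporter SLC6A9 read -0.59, -0.08 and -0.07 on treated p53+/+ arrays and 1.23, 1.99 and 1.22 on treated p53-/- arrays, a difference of -1.73 (SE 0.29, limma adjusted p = 0.0110). The glutamine transporter SLC1A5 differed by -1.19 (SE 0.25, limma adjusted p = 0.0211), and the cationic amino acid transporter SLC7A1, which was not called, by -1.06 (SE 0.33, limma adjusted p = 0.0729). Also called lower, by more, were SLC1A4 (-2.65, limma adjusted p = 0.0016) and SLC43A1 (-2.08, limma adjusted p = 0.0214). Neither was well above background on every treated array. The serine, glycine and one-carbon enzymes had a median of -0.17, with 0 of 13 higher and 1 lower, against the same 11.6% and 9.34%. The lower one was SHMT1, a cytosolic enzyme that converts serine to glycine (-1.88, SE 0.42, limma adjusted p = 0.0271), and CBS, which makes cystathionine from serine and homocysteine, differed by 1.81 (SE 0.58, limma adjusted p = 0.0783).

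The cytosolic aminoacyl-tRNA synthetases, several of which are ATF4 targets, had a median of -0.02, with 1 of 20 higher and 1 lower, where 11.6% and 9.34% of all genes were. SARS1, which charges serine tRNA, was higher by 1.38 (SE 0.23, limma adjusted p = 0.0106), AARS1, for alanine tRNA, was lower (-0.84, SE 0.22, limma adjusted p = 0.0452), and KARS1, for lysine tRNA, differed by -0.44 (SE 0.23, limma adjusted p = 0.227). Genes of the endoplasmic reticulum unfolded protein response outside the eIF2alpha arm had a median of 0.18, with 2 of 17 higher, near the 11.6% of all genes, and 0 lower, against 9.34%. The 2 were EDEM1, which takes part in the degradation of misfolded glycoproteins (0.90, SE 0.19, limma adjusted p = 0.0231), and the chaperone CALR (0.85, SE 0.17, limma adjusted p = 0.0182). ATF6, the sensor of another arm, differed by 0.76 (SE 0.22, limma adjusted p = 0.0562).

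**Figure D4:**
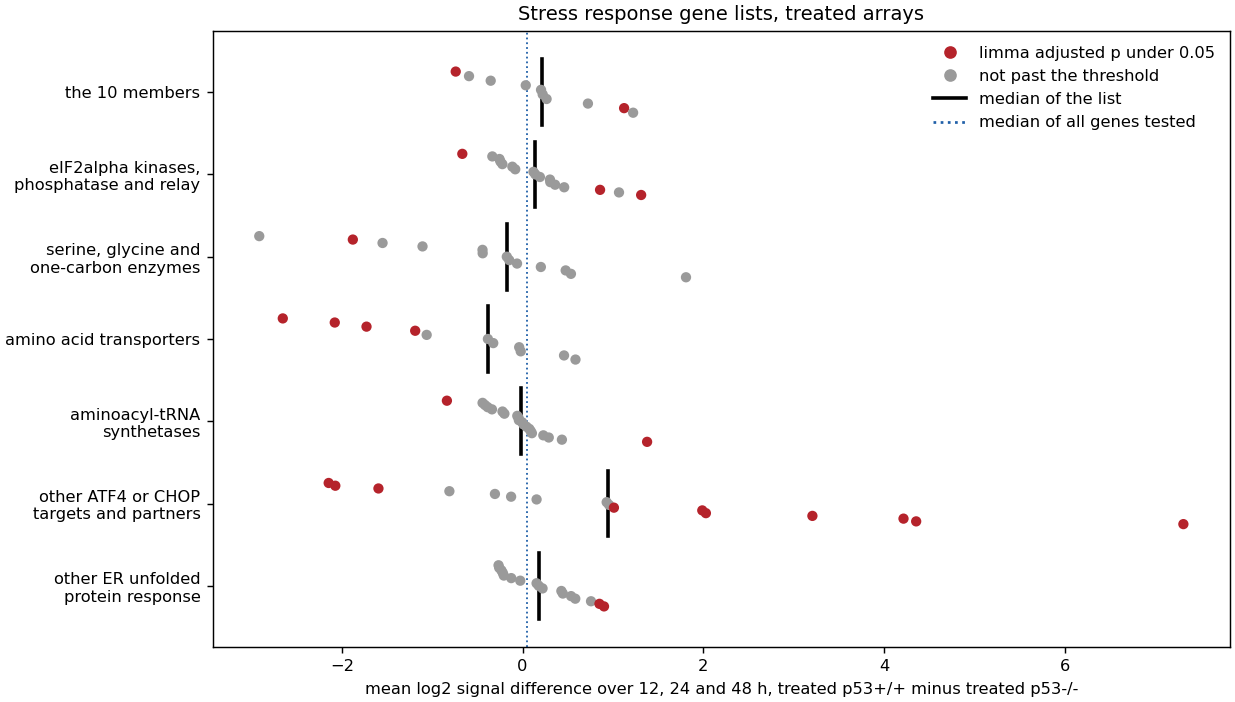
Mean log2 signal difference between treated p53+/+ and treated p53-/- arrays over 12, 24 and 48 h (horizontal axis) for the genes of 7 lists, 1 point a gene. Red points had a limma adjusted p under 0.05, black bars are list medians and the dotted line is the median of all genes tested (0.05). The 10 genes straddle 0 (median 0.21), most transporters lie left of the line, and GDF15 lies at 7.31.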

How the data were processed

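RNA of the 8 conditions was hybridised to 1 single-colour Agilent array each. The authors deposited the scanner output, made with Agilent Feature Extraction 10.7.3.1, which holds the processed signal, an intensity already corrected for background by that software. The deposited series table repeated these values (503808 of 503808 equal within a relative tolerance of 0.0001). Normalization between arrays is not given in the sources used here.

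Control spots and spots marked as uneven or outlying were left out (233 to 370 per array), which left 42391 of 42405 probes. Each log2 intensity was set against its array's 75th percentile, and spots of a probe were averaged. Transcript accessions matched 27227 probes (64.2%) to 20296 genes of GRCh38.p14. The file headers name build hg19, so only promoter coordinates of GRCh38.p14 are printed. A gene was read from the probe with the highest mean.

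A gene entered the counts, and a probe the fits, when well above background on at least 1 array. limma 3.58.1 (lmFit and eBayes, R 4.3.3) was fitted on genotype over the 6 treated arrays, and on genotype, treatment and their interaction over all 8, each with 4 residual degrees of freedom. p-values were adjusted over all 28947 probes. Precision is limited by having 8 arrays, and no saturated spot was found. On simulated data, with 200 of 28947 probes changed, the genotype fit recovered 0% of log2 changes of 1 and 51% of changes of 2 with 2 false calls, and the interaction fit recovered 0% of both. The genotype fit on the real data called 5201 probes, and the adjusted threshold is stricter when few probes change. These rates therefore do not give the power of the fits above.

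The 10 genes, the lists and the tests were chosen with earlier results of these data known. Named genes were the 10, CDKN1A and MDM2, the 3 genes of each other list with the largest treated difference among those well above background on all 6 treated arrays, and the 5 genes most like the mean profile of ASNS, CHAC1, PSAT1 and TRIB3. PSPH, SESN2, TNFRSF10B, STC2, JDP2, EIF4EBP1, SLC1A4 and SLC43A1 were named outside this rule. Some items covered by this choice are left out here. Alternatives were quantile normalization, scaling on the median, no scaling, normexp background correction (offset 50) of median spot signals, used here in place of mean ones, a mean over the probes of a gene, a 3-fold rule, at least 2 of 3 times, the p53-/- 0 h baseline, each treated time left out, time as a block, and stricter and no filters on dim probes. Python 3.11.15, numpy 2.4.6, pandas 2.3.3 and matplotlib 3.10.9 were used.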

Additional observations from a re-analysis of the deposited data

Results flagged for a closer look

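The change of ATF5 from 0 h differed between genotypes. The mean change was -2.22 on the log2 scale in p53+/+ relative to p53-/- cells (limma adjusted p = 0.0490), with all 3 p53-/- times above their 0 h array and all 3 p53+/+ times below the array labelled p53+/+ 0 h. If both genotypes are measured from the p53-/- 0 h array, the contrast becomes the difference between treated arrays, -0.74. The part of the array labelled p53+/+ 0 h in this result was not tested.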

How the results depend on the processing

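The scaling moves the median of all genes between treated genotypes at 12, 24 and 48 h from 0.09, -0.03 and 0.10 to -0.05, -0.10 and -0.04 (quantile), -0.18, -0.12 and 0.06 (median), -0.37, -0.52 and -0.76 (none) and 0.16, 0.12 and 0.26 (normexp), and each change above is relative to such a shift. The count of genes at least 2-fold higher in treated p53+/+ cells went from 1 to 0 with quantile normalization, scaling on the median, no scaling or a 3-fold rule, and to 2 (CHAC1 and PSAT1) with at least 2 of 3 times. The count risen in p53+/+ cells from the array labelled p53+/+ 0 h went from 1 to 0 with a 3-fold rule and to 2 (CHAC1 and PSAT1) with at least 2 of 3 times. Probes called by genotype, 5201, became 9393 with no scaling, 9894 with normexp, 12536 with no filter, and 2670, 292 and 2571 without 12, 24 and 48 h. Probes with an interaction, 488, became 1296 with no scaling, 1251 with normexp, and 42, 0 and 0 without 12, 24 and 48 h, where limma at an unadjusted p under 0.05 gave 4919, 3063 and 5274. Fewer arrays, 4 treated ones, leave 2 residual degrees of freedom there. Signs turned for ATF4 (0.04 to -0.10 with scaling on the median, -0.56 with none, -0.29 with quantile, -0.0798 without 24 h and -0.0224 without 48 h), DDIT3 (-0.59 to 0.0288 without 48 h), PPP1R15A (-0.35 to 0.0558 without 48 h), TRIB3 (0.22 to -0.38 with no scaling), CEBPB (0.27 to -0.33 with no scaling) and VLDLR (0.20 to -0.39 with no scaling and -0.0563 without 48 h). None of these 6 genes passed the threshold, and beyond the arrays left out the cause was not tested. ATF5, ASNS, CHAC1 and PSAT1 kept their sign under all alternatives run. The interaction with the p53-/- 0 h baseline was not run separately, since it equals the treated difference. Dim signal limits VLDLR. With time as a block, which pairs the genotypes by time, 4451 probes were called by genotype, among them PSAT1 and not ATF5.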
